A study of Mus musculus with 18 samples.

Results

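The 8 genes described here encode pacemaker channels (Hcn2 and Hcn4), connexins (Gja1, Gja5 and Gjc1) and voltage-gated calcium channel pores (Cacna1c, Cacna1g and Cacna1h). They were picked by symbol from a table of read counts for 23337 genes, and all 8 passed the filter on low counts, as did 14892 genes in all. They were followed in mouse embryonic stem cells of the GLI1-FTA line on the A2Lox.cre background, differentiated toward cardiomyocytes. The groups were GLI1 overexpression (OE) and untreated control at D6 (n = 3 each), at D8 (n = 2 each) and at D12 (n = 2 each), after a starting control at D5 (n = 4). GLI1 OE cells had received doxycycline at 500 ng/ml for 24 hours up to D6 and were then washed, so D8 and D12 are times after withdrawal. All groups come from 1 engineered line. Controls were left without doxycycline, so effects of GLI1 and of the drug itself cannot be told apart. The labels call D5 and D6 cells cardiac progenitors and D8 and D12 cells immature cardiomyocytes. They do not say whether replicates were separate cultures, so each p-value reflects spread among the libraries at hand, which may be technical.

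HCN channels open when the membrane hyperpolarizes and pass the inward "funny" current that brings pacemaker cells back to threshold. Connexins form the gap junctions through which that impulse passes from cell to cell. L-type calcium channels (Cacna1c) carry the calcium that starts contraction and the upstroke of nodal cells, and T-type channels (Cacna1g and Cacna1h) open at more negative voltages and contribute to diastolic depolarization. In the embryonic heart much of the myocardium is spontaneously active, and expression of Hcn4 later narrows to the nodes and conduction system. GLI1 is a transcriptional activator of the Hedgehog pathway.

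With all 18 libraries in the fit, Hcn4 was the only gene of the 8 called between GLI1 OE and control at D6. Gja5 had 10 counts over the D5 libraries and was called higher at D6 than at D5. The promoter windows of Hcn4 and Gja5 are shown. Each runs from 250 bases before to 50 bases after the annotated start, read 5′ to 3′ on the gene's own strand from the RefSeq annotation of mouse build GRCm38.p6. The Hcn4 window lies at chr9:58822699-58822998 and the Gja5 window at chr3:97032152-97032451, both on the plus strand. Capitals mark matches to the GC box GGGCGG on either strand.
Hcn4: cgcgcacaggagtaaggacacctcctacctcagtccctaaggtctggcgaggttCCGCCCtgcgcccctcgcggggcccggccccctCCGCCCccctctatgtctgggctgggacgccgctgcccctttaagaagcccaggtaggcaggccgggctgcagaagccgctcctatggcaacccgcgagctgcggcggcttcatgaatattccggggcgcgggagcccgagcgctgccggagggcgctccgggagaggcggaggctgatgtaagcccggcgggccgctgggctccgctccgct
Gja5: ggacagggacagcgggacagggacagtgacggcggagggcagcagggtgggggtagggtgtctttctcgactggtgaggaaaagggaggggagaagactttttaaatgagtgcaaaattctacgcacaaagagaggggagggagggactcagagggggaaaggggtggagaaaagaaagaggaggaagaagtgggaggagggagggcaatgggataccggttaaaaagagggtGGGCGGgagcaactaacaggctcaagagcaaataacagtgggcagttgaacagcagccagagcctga
The Hcn4 window is 71.7% G and C and the Gja5 window 55.7%, against a median of 52.7% over 32851 promoters in the table. Hcn4 has 2 GC boxes, both on the minus strand, starting 196 and 163 bases before the start, and Gja5 has 1, starting 17 bases before it. The GC box stands in 35.7% of all promoters. Windows were read for 5 of the 8 genes, 7 windows in all. None of the 7 holds the GLI motif GACCACCCA on either strand, which 0.253% of all promoters hold. None holds the T-box motif GGTGTGA (3.98% of promoters), the NKX2-5 motif TNAAGTG (11.5%) or a TATA box TATAAA (13.6%), and only the Gja1 window holds the GATA motif AGATAA (11.2%), 135 bases before its start. Such matches describe letters in these windows only.

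The libraries held 18470785 to 26184339 counts each, with 24842624 to 26184339 at D5 and up to 22608134 on later days. The microRNA gene Mir5109 had 0 counts in every D5 library and 67 to 147 in every later library. The sample labels used here do not say whether the D5 libraries were prepared or sequenced with the others. A difference of that kind and a difference of day cannot be told apart in comparisons with D5. Gli1 had 891, 1050 and 785 CPM (counts scaled to library size) in the D6 GLI1 OE libraries, against 6.84, 21.4 and 13.7 CPM in D6 controls. Its level at D8 was 0.925 and 1.45 CPM in GLI1 OE and 0.752 and 1.18 CPM in control, with overlap. All 9 cardiomyocyte markers were over 1 CPM in every group, and no marker was at 0. Their summed level differed widely within groups. It was 1520 to 4710 CPM in D6 GLI1 OE and 4640 to 11000 CPM in D6 control, 14200 and 1390 CPM in D8 GLI1 OE libraries 14 and 18 and 15800 and 7210 CPM in D8 control, and 3220 to 6680 CPM in D12 GLI1 OE and 4990 to 13000 CPM in D12 control. In bulk RNA, fewer cells of a type and less RNA per cell cannot be told apart.

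Levels can be compared between the 8 genes only per length. The deposited TPM values of the D5 controls, which are divided by transcript length, put Gja1 first at 246 ± 52.7 TPM (SD, n = 4), followed by Gjc1 at 92.1 ± 11.7, Cacna1c at 18 ± 10.9 and Hcn4 at 5.63 ± 1.39 TPM. Cacna1h (1.6 ± 1.15 TPM), Cacna1g (1.41 ± 0.48 TPM) and Hcn2 (0.694 ± 0.101 TPM) were lower, and Gja5 was lowest at 0.0855 ± 0.0684 TPM. Cacna1h and Cacna1g were closer to each other than the SD of either. Scaled by the same length factor, Gja1 and Gjc1 held the first 2 places by mean in all 7 groups. Gjc1 was ahead of Gja1 in D8 GLI1 OE only, where the range of Gja1 (45.8 to 194) enclosed that of Gjc1 (110 to 142). The range of Cacna1h overlapped that of the gene in second place in D8 GLI1 OE (21.1 to 110). It also did so in D8 control (48.3 to 97.4, against 87.3 to 90.3 for Gjc1) and D12 control (38 to 49.7, against 42.3 to 58 for Gjc1). The third place passed to Hcn4 in D6 control and to Cacna1h in all groups at D8 and D12. Hcn2 was last in every group but D5.

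**Figure D1:**
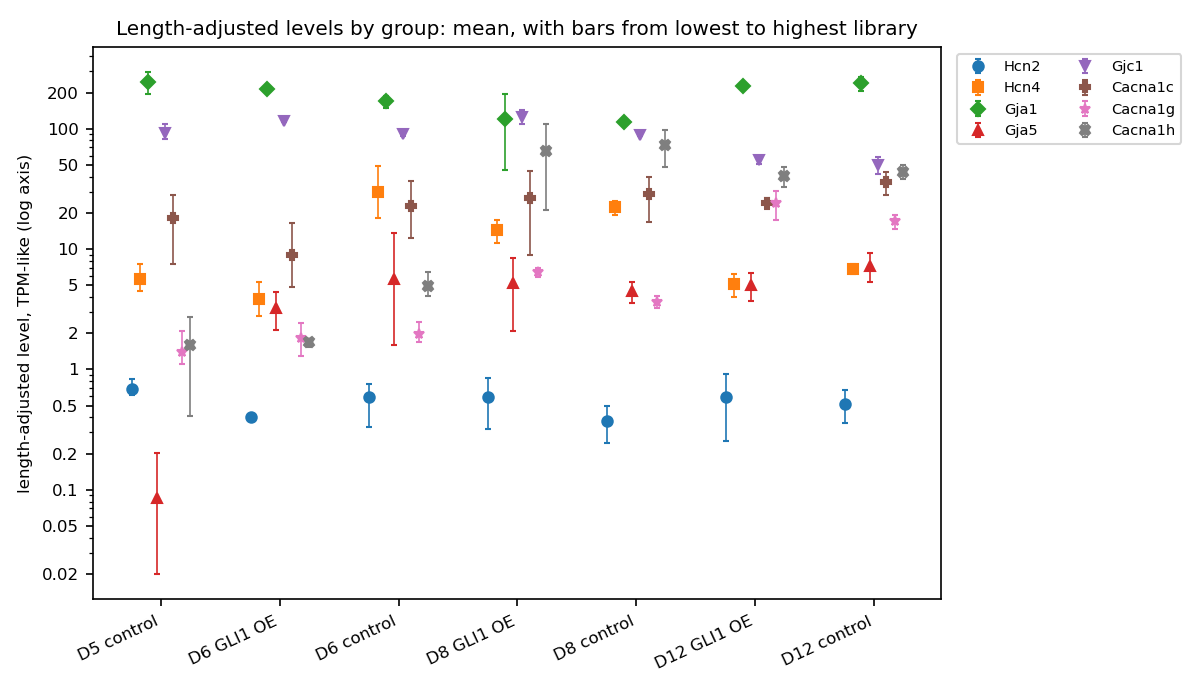
Length-adjusted level of each of the 8 genes (log axis, CPM multiplied by the gene's ratio of deposited TPM to CPM at D5) in the 7 groups. Points are group means and bars run from the lowest to the highest library. The bar of Gja5 at D5 reaches 0 and is cut at the foot of the axis. By mean, Gja1 and Gjc1 lie on top throughout, and Cacna1h stands near 1.6 at D5 and between 40.4 and 72.9 on average at D8 and D12.

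The D6 comparison asked which of these genes differ while GLI1 is induced. Of the 8, only Hcn4 passed edgeR's quasi-likelihood test at an adjusted p under 0.05, and it was lower. Over all genes tested 4.14% were called, 3.02% higher and 1.12% lower. Groups did not overlap for 4 of the 8, Hcn4 and Cacna1h with all GLI1 OE libraries below and Gja1 and Gjc1 with all above, against 27% of all genes. The median log2 fold change of the 8 was -0.69, against -0.02 over all genes, with 6 of 8 below 0.

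Hcn4 is the main pacemaker channel gene of the sinoatrial node. It had 4.84, 6.17 and 9.2 CPM in the D6 GLI1 OE libraries, against 38.3, 31.7 and 85.9 CPM in D6 controls. Every control library lay above every GLI1 OE library. The log2 fold change was -2.95 ± 0.39 (SE; 7.71-fold lower, edgeR adjusted p = 0.000447), and the call held in all 18 fits that each left out 1 library (log2 fold change -3.24 to -2.38). The 9 cardiomyocyte markers had a median log2 fold change of -1.29 at D6, none of them called, and their part in the Hcn4 difference was not tested.

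In controls Hcn4 was 5.3-fold higher at D6 than at D5 (log2 fold change 2.41 ± 0.34, edgeR adjusted p = 0.000216). The D5 libraries had 10.4, 7.74, 8 and 13 CPM. D6 GLI1 OE over D5 control gave -0.54 ± 0.35 (edgeR adjusted p = 0.273), and those groups overlapped. In D6 GLI1 OE over D5 control 2 of the 8 genes were called, both higher, against 29.5% of all genes (14.8% higher and 14.7% lower), and 3 did not overlap, against 36.7%. In control D6 over D5 2 were called, both higher, against 18.4% of all genes (8.39% higher and 9.99% lower), and 4 did not overlap, against 29%.

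At D8, after withdrawal, Hcn4 had 30.2 and 19.4 CPM in GLI1 OE, against 33.2 and 44 CPM in control. At D12 it had 10.7 and 6.97 CPM in GLI1 OE, against 10.7 and 13.2 CPM in control. Both GLI1 OE libraries were below both controls at D8, and the groups met at D12. The log2 fold changes were -0.64 ± 0.44 at D8 (edgeR adjusted p = 0.884) and -0.43 ± 0.45 at D12 (edgeR adjusted p = 0.971). From D6 to D8 Hcn4 rose 3.68-fold within GLI1 OE (log2 fold change 1.88 ± 0.40, edgeR adjusted p = 0.0026), while control D8 over D6 gave -0.43 ± 0.40 (edgeR adjusted p = 0.43).

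The change of the GLI1 OE effect on Hcn4 was tested directly. The effect at D8 minus that at D6 was 2.31 ± 0.58 log2 units (edgeR adjusted p = 0.121), and that at D12 minus D6 was 2.51 ± 0.59 (edgeR adjusted p = 0.0924). Neither passed over all genes in edgeR, and no other gene of the 8 passed, against 0.631% of all genes at D8 minus D6 (0.0672% higher and 0.564% lower) and 0.604% at D12 minus D6 (0.094% higher and 0.51% lower). DESeq2, an alternative, called both (adjusted p = 0.00795 and 0.00265).

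At D12 Hcn4 was lower than at D8 in both conditions. The log2 fold change was -1.49 ± 0.45 in GLI1 OE (edgeR adjusted p = 0.0221) and -1.69 ± 0.45 in control (edgeR adjusted p = 0.0103). Each call was lost in 2 of the 18 fits, in GLI1 OE without D8 library 14 (adjusted p = 0.136) or D12 library 20 (0.157), and in control without D8 library 17 (0.0687) or D12 library 9 (0.0825). In order of group means, Hcn4 was highest in D6 control (51.9 ± 29.6 CPM), D8 control (38.6 ± 7.64) and D8 GLI1 OE (24.8 ± 7.65). It was lowest in D12 control (11.9 ± 1.73), D5 control (9.79 ± 2.47), D12 GLI1 OE (8.85 ± 2.66) and D6 GLI1 OE (6.74 ± 2.24 CPM; SD in each case). Neighbours in this order overlapped in range except D8 control beside D8 GLI1 OE and D8 GLI1 OE beside D12 control.

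**Figure D2:**
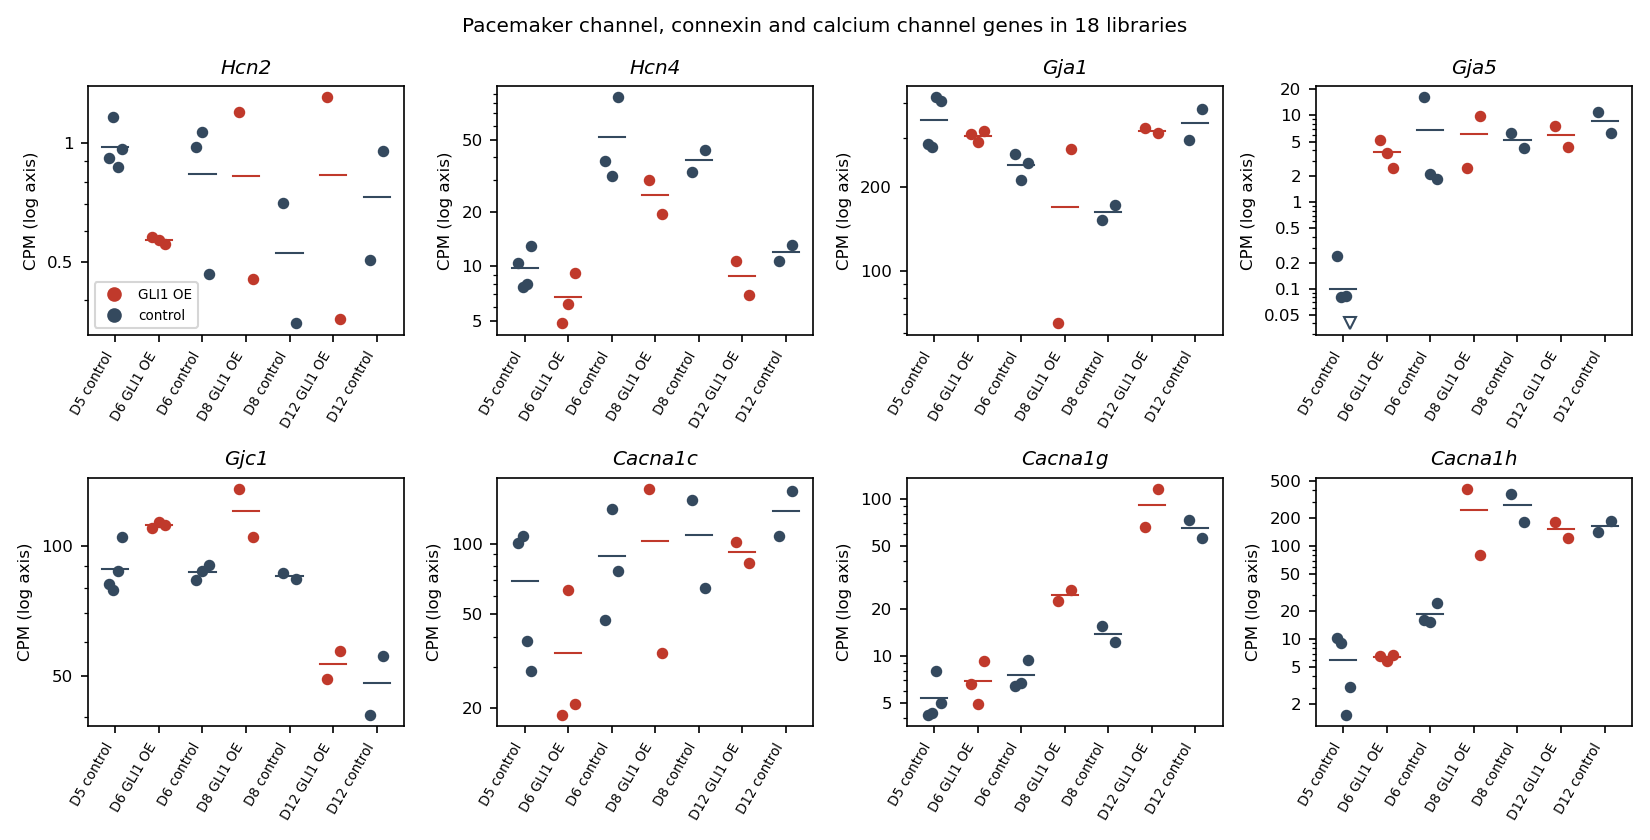
CPM (log axis) of the 8 genes in each of the 18 libraries, GLI1 OE in red and control in dark blue, with bars at the group means. The open triangle marks a D5 library with 0 counts for Gja5. The 3 D6 GLI1 OE libraries of Hcn4 sit between 4.84 and 9.2 CPM, below the 3 D6 controls at 31.7 to 85.9 CPM.

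Hcn2, the other cardiac HCN gene, found in atrial and ventricular muscle, was near the floor of detection in all libraries, with 8 to 29 counts each. It had 0.579, 0.57 and 0.555 CPM in D6 GLI1 OE, against 0.978, 1.07 and 0.467 CPM in D6 control. The groups overlapped, and the log2 fold change was -0.56 ± 0.52 (edgeR adjusted p = 0.702). It was called in none of the 11 comparisons, and its group means ranged only from 0.528 CPM in D8 control to 0.982 CPM in D5 control.

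Gja1 encodes the main connexin of working myocardium and is also widely expressed outside muscle. It had 309, 289 and 317 CPM in D6 GLI1 OE, against 263, 211 and 243 CPM in D6 control. All GLI1 OE libraries were above all controls, and the log2 fold change of 0.35 ± 0.35 was not called (edgeR adjusted p = 0.73). At D8 the GLI1 OE libraries 14 and 18 stood apart, at 64.7 and 274 CPM, on both sides of the controls at 152 and 172 CPM. At D12 the values were 324 and 312 CPM in GLI1 OE and 294 and 381 CPM in control. The D8 effect was 0.07 ± 0.43 (edgeR adjusted p = 0.995), and it was -1.32 without GLI1 OE library 18 and 0.74 without library 14, neither of them called. GLI1 OE D8 over D6 was -0.85 ± 0.40 (edgeR adjusted p = 0.107), and limma-voom called it at -1.19 (limma-voom adjusted p = 0.0304). GLI1 OE D12 over D8 was 0.91 ± 0.43 (edgeR adjusted p = 0.119), and limma-voom called it at 1.26 (limma-voom adjusted p = 0.0405). Without library 18, which left 1 library in D8 GLI1 OE, these were -2.23 and 2.32 in edgeR. The D8 minus D6 change of the effect was then -1.66, against -0.28 ± 0.55 with all libraries.

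The spread of Gja1 in D8 GLI1 OE also enters every other Gja1 test through the shared estimate. Control D12 over D8 was 1.06 ± 0.43 (edgeR adjusted p = 0.0691) with all libraries, and was called without D8 GLI1 OE library 14 (adjusted p = 0.00103) or 18 (0.00109). Control D8 over D6, at -0.56 ± 0.40 (edgeR adjusted p = 0.285), was likewise called without either (0.0266 and 0.0268), as was control D6 over D5, at -0.54 ± 0.33 (edgeR adjusted p = 0.289 with all libraries, 0.0243 and 0.0258). With all libraries DESeq2 called control D12 over D8 (1.08, DESeq2 adjusted p = 0.0335). With only the libraries of the groups compared, edgeR called control D12 over D8 (1.07, edgeR adjusted p = 0.0132) and control D8 over D6 (-0.57, edgeR adjusted p = 0.0165). The Gja1 means in control were 347 ± 76.3 CPM at D5, 239 ± 25.8 at D6, 162 ± 14.4 at D8 and 337 ± 61.7 at D12 (SD). D8 was lowest in this series, and neither D8 library reached any library of D6 or D12.

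Gja5 encodes a connexin of atria, the His-Purkinje system and arterial endothelium. The 4 D5 libraries held 6, 2, 2 and 0 counts of it, 10 in all. Its level was higher at D6 than at D5 in both conditions. Its CPM were 5.17, 3.7 and 2.5 in D6 GLI1 OE, 16.2, 2.09 and 1.87 in D6 control, and 0.239 to 0 at D5. The log2 fold change over D5 was 5.14 ± 0.95 in GLI1 OE (edgeR adjusted p = 0.00109) and 5.97 ± 0.95 in control (edgeR adjusted p = 0.000569). The size of the control value rests in part on D6 control library 3, without which it was 4.21, and both depend on D5 library 1, without which they were 5.97 in GLI1 OE and 6.79 in control. All of these were called.

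Between GLI1 OE and control at D6, Gja5 gave -0.82 ± 0.77 (edgeR adjusted p = 0.704), and 0.93 without control library 3, not called. At D8 it had 2.45 and 9.85 CPM in GLI1 OE and 6.33 and 4.23 CPM in control, and at D12 7.5 and 4.34 CPM in GLI1 OE and 10.9 and 6.31 CPM in control. None of the later steps was called for Gja5. The summed level of 8 endothelial markers was 526 CPM in D6 control library 3, against 214 and 365 CPM in the other D6 controls, and 514 CPM in D8 GLI1 OE library 18, against 239 CPM in library 14. The sums were 326 and 525 CPM in D8 control libraries 13 and 17. They were 481 and 625 CPM in D12 GLI1 OE libraries 10 and 20, and 492 and 639 CPM in D12 control libraries 9 and 19. In each of these later groups the library with the higher sum had the lower Gja5. D6 GLI1 OE libraries 4, 12 and 16 had sums of 575, 337 and 574 CPM, and Gja5 was lowest in library 16. Of those 8 markers, 6 were called higher in control D6 over D5, against 8.39% of all genes. The sums there were 214 to 526 CPM at D6 and 59.2 to 296 CPM at D5, and none of the markers was at 0 in any group. Their part in the Gja5 values was not tested.

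Gjc1 encodes the connexin that appears first in the embryonic heart and stays in nodal cells. It had 110, 114 and 112 CPM in D6 GLI1 OE, against 83.3, 87.4 and 90.4 CPM in D6 control. The groups did not overlap, and the log2 fold change of 0.36 ± 0.13 missed the threshold (edgeR adjusted p = 0.169). At D8 it had 136 and 105 CPM in GLI1 OE, against 86.5 and 83.7 CPM in control, again with no overlap (0.50 ± 0.16, edgeR adjusted p = 0.696). At D12 it had 49 and 57.2 CPM in GLI1 OE and 40.5 and 55.5 CPM in control (0.15 ± 0.16, edgeR adjusted p = 0.973), and these ranges overlapped.

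With time Gjc1 fell between D8 and D12 in both conditions, by 1.18 ± 0.16 log2 units in GLI1 OE (edgeR adjusted p = 0.000191) and by 0.83 ± 0.16 in control (edgeR adjusted p = 0.0016). Control D6 over D5 (-0.02 ± 0.12) and control D8 over D6 (-0.03 ± 0.15) were both within 1 SE of 0. D6 GLI1 OE over D5 control was called narrowly at 0.34 ± 0.12 (edgeR adjusted p = 0.0488), and 12 of the 18 fits that left out 1 library lost it, with adjusted p of up to 0.122.

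Cacna1h, the T-type pore most used in embryonic myocardium, was low until D6 and high from D8. It had 6.61, 5.79 and 6.71 CPM in D6 GLI1 OE, against 16.2, 15.4 and 24.4 CPM in D6 control. The groups did not overlap, and the log2 fold change of -1.55 ± 0.63 was not called (edgeR adjusted p = 0.233). At D8 it had 413 and 79.4 CPM in GLI1 OE and 366 and 181 CPM in control, and at D12 181 and 122 CPM in GLI1 OE and 143 and 187 CPM in control. Both conditions overlapped on both days (-0.15 ± 0.72 at D8, edgeR adjusted p = 0.989, and -0.12 ± 0.72 at D12, edgeR adjusted p = 0.999).

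The step of Cacna1h between D6 and D8 was the largest called for any of the 8 after D6. It rose 38.6-fold at D8 over D6 within GLI1 OE (log2 fold change 5.27 ± 0.74, edgeR adjusted p = 0.000144) and 14.6-fold within control (3.87 ± 0.69, edgeR adjusted p = 0.000922). Without D8 GLI1 OE library 14 the first was 3.62 and without library 18 it was 6.02, and without D8 control library 13 the second was 3.27, all called. The difference between the 2 steps, which is the D8 minus D6 change of the GLI1 OE effect, was 1.40 ± 0.95 (edgeR adjusted p = 0.914). Control D6 over D5 was 1.64 ± 0.58 (edgeR adjusted p = 0.0666) and was called without D5 library 1 (adjusted p = 0.0489) or D8 GLI1 OE library 14 (0.0299) or 18 (0.0295). D12 over D8 was -0.70 ± 0.72 in GLI1 OE and -0.73 ± 0.72 in control, neither called.

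Cacna1g, the other T-type pore, which in adult mouse heart is found in the sinoatrial and atrioventricular nodes, climbed later. It had 6.61, 4.94 and 9.25 CPM in D6 GLI1 OE and 6.42, 6.7 and 9.39 CPM in D6 control, nearly the same span (-0.11 ± 0.29, edgeR adjusted p = 0.927). At D8 it had 22.3 and 26.2 CPM in GLI1 OE, against 15.5 and 12.2 CPM in control. These groups did not overlap, and the effect of 0.81 ± 0.35 missed the threshold (edgeR adjusted p = 0.818). At D12 it had 66.5 and 116 CPM in GLI1 OE and 73.5 and 56.2 CPM in control, which overlapped (0.49 ± 0.34, edgeR adjusted p = 0.946).

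Cacna1g rose at D8 over D6 by 1.81 ± 0.32 log2 units in GLI1 OE (edgeR adjusted p = 0.000701) and by 0.89 ± 0.32 in control (edgeR adjusted p = 0.0452). In control, 8 of the 18 fits lost that call, with adjusted p of up to 0.245, as did limma-voom (0.0688). It rose again at D12 over D8, by 1.91 ± 0.35 in GLI1 OE (edgeR adjusted p = 0.00124) and by 2.23 ± 0.36 in control (edgeR adjusted p = 0.000414). Over the 8 genes, D8 over D6 called 3 in GLI1 OE, all higher, against 40.1% of all genes (20.3% higher and 19.8% lower). It called 2 in control, both higher, against 34.8% (17.3% higher and 17.5% lower). D12 over D8 called 1 higher and 2 lower in GLI1 OE, against 33.5% of all genes (15.9% higher and 17.5% lower), and 1 higher and 2 lower in control, against 36.3% (16.9% higher and 19.4% lower). With only the D8 and D12 GLI1 OE libraries in the fit none of those 3 GLI1 OE calls held (adjusted p = 0.0772 for Hcn4, 0.0535 for Gjc1 and 0.0532 for Cacna1g). Groups did not overlap for 4 of the 8 at D8 over D6 in GLI1 OE (60.5% of all genes), 3 in control (64.1%), 4 at D12 over D8 in GLI1 OE (63.5%) and 4 in control (72.4%).

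Cacna1c, the pore of the main L-type channel of the heart, varied widely within groups. It had 18.7, 63.7 and 20.9 CPM in D6 GLI1 OE and 47.6, 141 and 76.2 CPM in D6 control, with library 12 of GLI1 OE above the lowest control. Within each pair of adjacent library numbers it was lower in GLI1 OE, by log2 differences of -1.34 (libraries 4 and 3), -1.15 (12 and 11) and -1.87 (16 and 15). The log2 fold change was -1.36 ± 0.69 (edgeR adjusted p = 0.369), and -1.45 ± 0.50 with the replicate block (edgeR adjusted p = 0.157). At D8 it had 171 and 34.3 CPM in GLI1 OE and 154 and 64.6 CPM in control, and at D12 102 and 82.6 CPM in GLI1 OE, against 108 and 167 CPM in control. The D12 groups were the only ones of the 8 genes at that day without overlap, against 34.3% of all genes, and the effect was -0.57 ± 0.83 (edgeR adjusted p = 0.975). With all libraries Cacna1c was called in none of the 11 comparisons. GLI1 OE D8 over D6, at 1.58 ± 0.75 (edgeR adjusted p = 0.108), was called without D6 library 12 (2.38, adjusted p = 0.0391) or D8 library 18 (2.32, adjusted p = 0.0343), and was -0.02 without D8 library 14. Among controls, the 4 D5 libraries alone ran from 28.8 to 108 CPM.

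At D8 the libraries with the higher cardiomyocyte marker sums also had the higher Cacna1c and Cacna1h, and at D5 the 2 libraries with the highest sums did. At D6 this order held for Cacna1c but not for Cacna1h. D6 GLI1 OE libraries 4, 12 and 16 had sums of 1520, 4710 and 1650 CPM and Cacna1h at 6.61, 5.79 and 6.71 CPM. D6 control libraries 3, 11 and 15 had sums of 4640, 11000 and 7240 CPM and Cacna1h at 16.2, 15.4 and 24.4 CPM. In both D6 groups the library with the highest sum thus had the lowest Cacna1h. At D8 GLI1 OE library 14, with a marker sum of 14200 CPM, had 171 CPM of Cacna1c, 413 of Cacna1h and 64.7 of Gja1. Library 18, with a sum of 1390 CPM, had 34.3, 79.4 and 274 CPM of the same genes. At D8 control, library 13 (15800 CPM) had 154 CPM of Cacna1c and 366 of Cacna1h, and library 17 (7210 CPM) had 64.6 and 181. Gja1 was 152 and 172 CPM in these controls. At D5, libraries 1 and 2 had sums of 5140 and 4690 CPM and Cacna1h at 10.2 and 9.19 CPM, and libraries 3 and 4 had sums of 1590 and 2400 CPM and Cacna1h at 1.53 and 3.08 CPM. The part of the marker level in the comparisons of these genes was not tested.

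**Figure D3:**
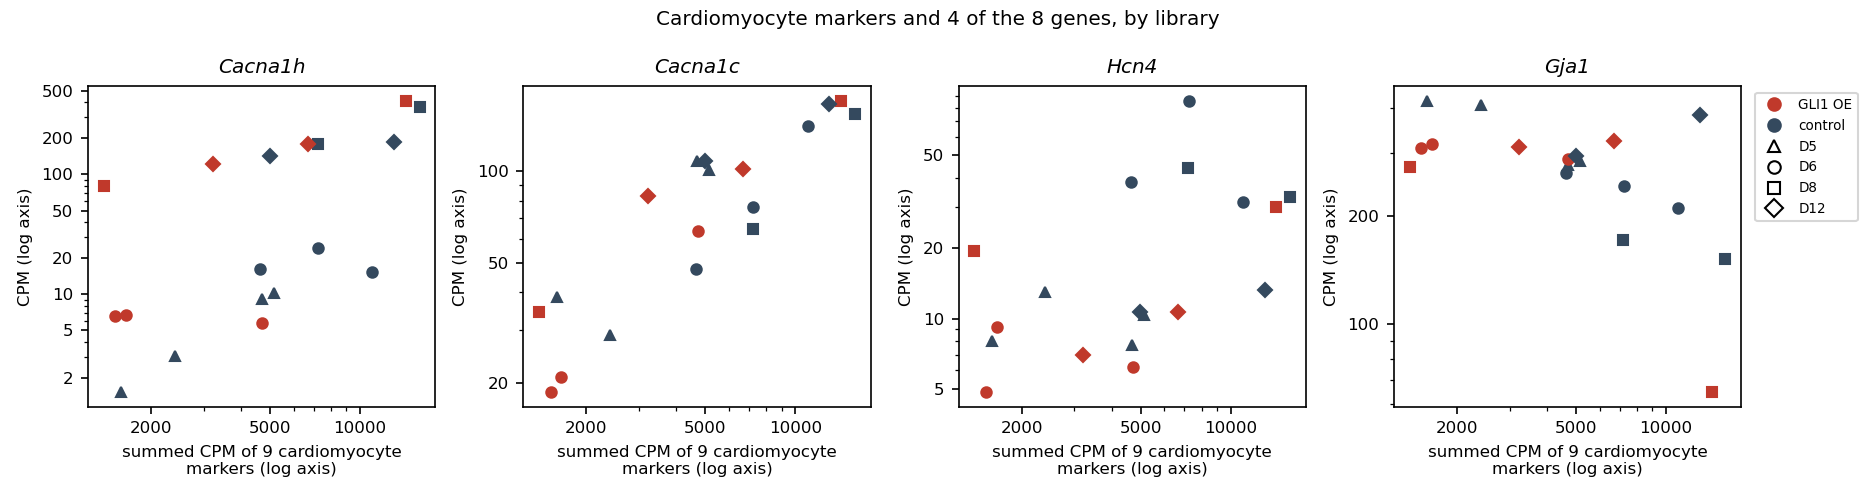
CPM of Cacna1h, Cacna1c, Hcn4 and Gja1 (log axis) against the summed CPM of 9 cardiomyocyte markers (log axis) in 18 libraries, GLI1 OE in red and control in dark blue, with a symbol for each day. D8 GLI1 OE library 14 lies far right (14200 CPM of markers) and library 18 far left (1390 CPM), and Cacna1c is 171 CPM in library 14 and 34.3 CPM in library 18.

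At D8 and D12 no gene of the 8 was called between GLI1 OE and control, and edgeR called 0% of all 14892 genes on either day. At an unadjusted p under 0.05 there were 886 genes at D8, 2 of them among the 8, and 840 at D12, none among the 8. DESeq2 called 40 genes at D8 and 14 at D12, and limma-voom called 1 at D12, none of them among the 8. Groups did not overlap for 3 of the 8 at D8, against 32.2% of all genes. D8 and D12 held 2 libraries a group, and 1 library moved several values. Without D8 GLI1 OE library 14 edgeR called 49 genes at D8, and without D8 control library 13 it called 1.

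**Figure D4:**
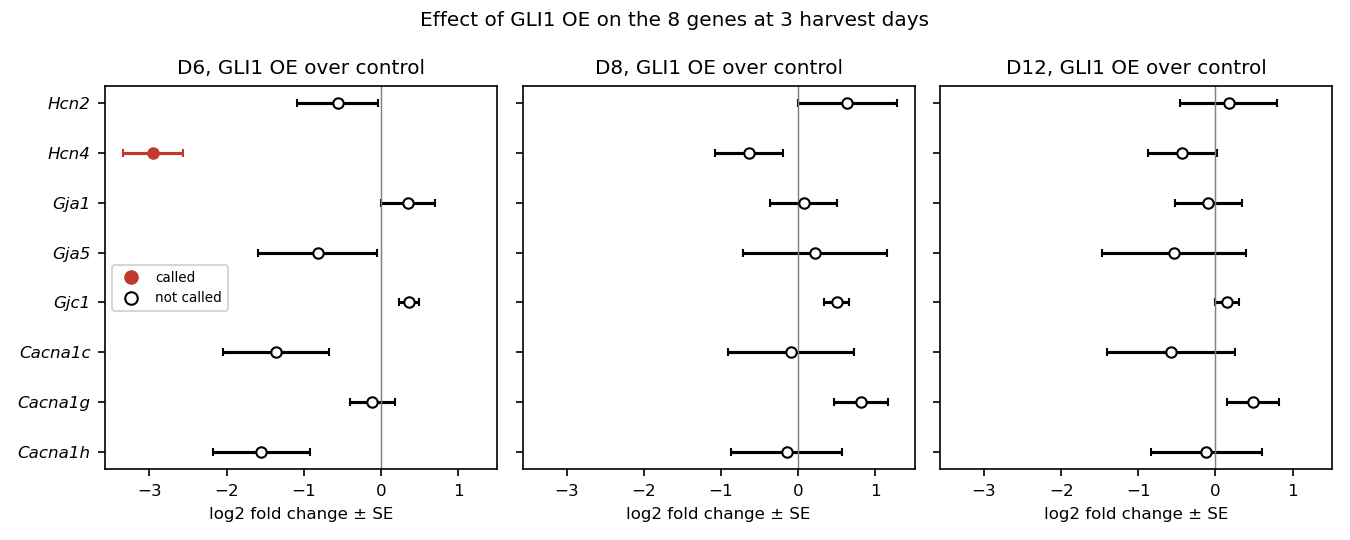
Log2 fold change of GLI1 OE over control with its SE for each of the 8 genes at D6, D8 and D12. Filled red is called at an edgeR adjusted p under 0.05 and open is not. Hcn4 at D6 (-2.95 ± 0.39) is the only filled point.

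The D6 calls depended on how the spread was estimated. With only the 6 D6 libraries in the fit, 3 of the 8 genes were called, Hcn4, Gjc1 (0.37, edgeR adjusted p = 0.0142) and Cacna1h (-1.54, edgeR adjusted p = 0.00578), with 1254 genes called in all. The authors' deposited table for D6 gives adjusted p of 2.32e-13 for Hcn4 (log2 fold change -2.94), 6.98e-10 for Cacna1h (-1.54), 0.000161 for Gjc1 (0.37) and 0.0126 for Gja1 (0.36). For Cacna1c it gives -1.35 with an adjusted p of 0.256 in the authors' deposited table.

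Other members of the 3 families were read beside the 8. Hcn3, another HCN channel gene, had 1.82, 0.902 and 1.16 CPM in D6 GLI1 OE, against 1.87, 1.86 and 1.64 CPM in D6 control. The groups overlapped, and the log2 fold change was -0.46 ± 0.29 (edgeR adjusted p = 0.51). Gjb5, a connexin gene best known from skin and other epithelia, was called higher at D6. It had 26.5, 27.8 and 23.9 CPM in D6 GLI1 OE, against 1.19, 0.837 and 1.64 CPM in D6 control (4.41 ± 0.67, edgeR adjusted p = 0.00141).

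The summed level of 8 markers of endoderm, an epithelial cell type, was 104 to 131 CPM in D6 GLI1 OE and 9.07 to 14.4 CPM in D6 control. Of the 8 markers, 2 were called higher, against 3.02% of all genes, and none was at 0 in these groups. Foxa2, one of them and a known Hedgehog target in the floor plate, made up 85.5, 95.5 and 112 CPM of that sum in GLI1 OE and 0.255 to 0.791 CPM in control. Afp, Alb and Ttr were higher in every GLI1 OE library than in every control, at no more than 1.39 CPM. Sox17, Apoa1 and Epcam overlapped between the groups, and Cldn6 was lower in every GLI1 OE library than in every control. The part of endoderm cells in the Gjb5 values was not tested. At D8 Gjb5 was back to 1.43 and 0.363 CPM in GLI1 OE and 1.06 and 1.31 CPM in control, and the D8 minus D6 change of its effect was -4.81 ± 1.04 (edgeR adjusted p = 0.0577).

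Of the 7 other calcium channel pore genes 6 passed the filter and none was called at D6, against 4.14% of all genes. DESeq2, which called 1030 genes in all, called Cacna1i higher and Cacna1d lower. Cacna1d, the L-type pore of the sinoatrial node, had 7.19, 17.1 and 13.1 CPM in GLI1 OE, against 20.6, 38.7 and 72.5 CPM in control (-1.82 ± 0.49, edgeR adjusted p = 0.054). With paired libraries as a replicate block it was called (-1.72, edgeR adjusted p = 0.0232). Cacna1i, the other T-type pore, known from neurons, was under 2 CPM in all D6 libraries (3.11 ± 0.89, edgeR adjusted p = 0.0702), and Cacna1a, a P/Q-type pore of neurons, gave -0.84 ± 0.28 (edgeR adjusted p = 0.13). None of 11 tested auxiliary subunit genes was called, with Cacna2d1 at -0.45 ± 0.15 (edgeR adjusted p = 0.138, and 0.0349 with the replicate block), Cacna2d3 at 2.07 ± 0.80 (edgeR adjusted p = 0.198) and Cacng4 at -1.16 ± 0.59 (edgeR adjusted p = 0.377).

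**Figure D5:**
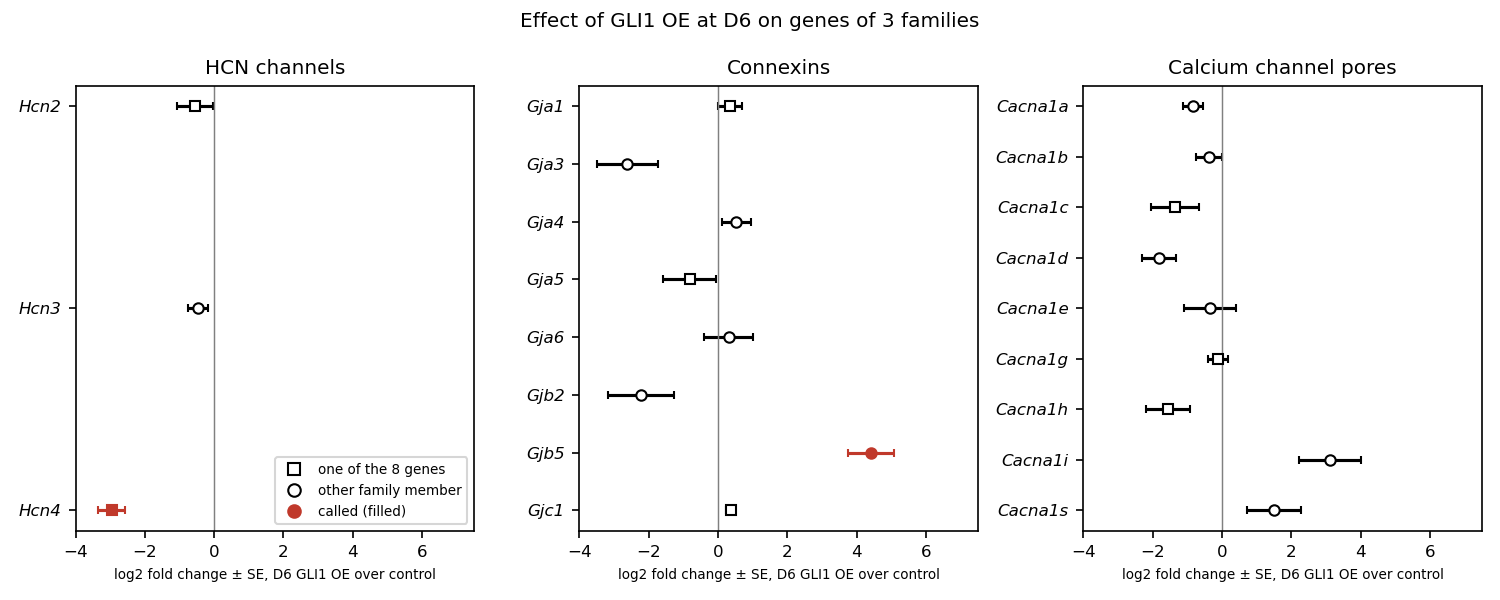
Log2 fold change with SE of GLI1 OE over control at D6 for HCN, connexin and calcium channel pore genes reported here. Squares are among the 8 genes, circles are other family members and red filled points were called. Gjb5 lies farthest to the right, and Hcn4 is the only called point left of 0.

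Among 15 transcription factor genes of pacemaker and conduction tissue, 3 fell at D6 and none rose, against 1.12% lower and 3.02% higher over all genes, with a median log2 fold change of -1.23, against -0.02 over all genes. With only the 6 D6 libraries in the fit 8 of the 15 were called lower, and with the replicate block 1 was. Those fits called 1254 and 667 genes in either direction, against 616 with all 18 libraries and no block. Cardiomyocyte, cardiac progenitor and blood markers had medians of similar size at D6, with none of them called. The median was -1.29 for 9 cardiomyocyte markers, -1.23 for 8 cardiac progenitor markers and -1.28 for 6 blood markers. The summed cardiac progenitor markers were 510 to 628 CPM in GLI1 OE and 780 to 1340 CPM in control, and the summed blood markers 109 to 241 CPM in GLI1 OE and 202 to 722 CPM in control. The list itself holds Isl1, Tbx5 and Gata4 of the cardiac progenitor markers and Nkx2-5 of the cardiomyocyte markers. The part of these cells in the values of the list was not tested. Tbx2, a T-box repressor that marks nodal and atrioventricular canal myocardium, had 5.09, 3.32 and 3.56 CPM in GLI1 OE, against 57.9, 28.3 and 61.2 CPM in control (-3.62 ± 0.47, edgeR adjusted p = 0.000412). The D5 controls had 5.06 to 13.5 CPM of Tbx2. Id2, a helix-loop-helix inhibitor of the ventricular conduction system, gave -1.29 ± 0.30 (edgeR adjusted p = 0.0261) and Irx3, a homeobox gene of His-Purkinje cells, -1.23 ± 0.30 (edgeR adjusted p = 0.0283). Both lost their call with the replicate block (adjusted p = 0.0657 and 0.0695), and leaving out single libraries took it from Id2 in 4 fits and from Irx3 in 6.

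Of 14 intercalated disc and gap junction partner genes, 1 rose and 2 fell at D6, against 3.02% higher and 1.12% lower over all genes. Their median was -0.40, against -0.02 over all genes. With only the D6 libraries in the fit 4 were called lower, and that fit called 1254 genes in either direction, against 616 with all 18 libraries. Ctnnb1, which encodes beta-catenin, had 1850, 2100 and 2220 CPM in GLI1 OE and 1270, 1320 and 1390 CPM in control (0.63 ± 0.09, edgeR adjusted p = 0.000793). Cdh2, the N-cadherin that holds cardiac gap junctions in place, had 184, 200 and 176 CPM in GLI1 OE and 388 to 409 CPM in control (-1.09 ± 0.20, edgeR adjusted p = 0.00617). Jup, plakoglobin, gave -0.71 ± 0.18 (edgeR adjusted p = 0.0356), which 7 of the 18 fits did not call. Of 11 genes that act on HCN current or pacing, 2 fell, against 1.12% of all genes (median -1.16, against -0.02 over all genes). They were the beta-adrenergic receptor gene Adrb1 (-1.73 ± 0.45, edgeR adjusted p = 0.0466) and the adenylyl cyclase gene Adcy6 (-0.68 ± 0.18, edgeR adjusted p = 0.0484). Both calls were lost in most fits without 1 library, and Adrb1 also with the replicate block (adjusted p = 0.0991). Of the 11, 5 were called lower with only the D6 libraries in the fit, 4 with DESeq2, 1 with limma-voom, RLE scaling or the replicate block, and 0 with no filter on low counts. In either direction over all genes, the fit of only the D6 libraries called 1254 and DESeq2 1030. The muscarinic receptor gene Chrm2 gave -1.81 ± 0.50 (edgeR adjusted p = 0.0609).

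At D8 and D12 no gene of these lists was called between GLI1 OE and control. Tbx2 then stood at 199 and 106 CPM in GLI1 OE and 73.8 and 63.5 CPM in control at D8 (1.15 ± 0.50, edgeR adjusted p = 0.818), and at 115 and 228 CPM in GLI1 OE and 68.5 and 38.4 CPM in control at D12 (1.68 ± 0.51, edgeR adjusted p = 0.618).

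For each of the 8, the 3 genes with the most similar log2 CPM over all 18 libraries were found among 11051. The libraries share days and depth, so the correlations are descriptions. Hcn4 was nearest to Ankrd34a (Pearson r = 0.88, Spearman rho = 0.856), Speg, a gene of the muscle junctional membrane (r = 0.819), and Fam49a (r = 0.811). Cacna1h was nearest to Ndrg2, Gm2a and Crat (r = 0.971 to 0.976), and Cacna1g to Tctn1, Tcirg1 and Ptgs1 (r = 0.968 to 0.974). Cacna1c was nearest to Erbb4, the neuregulin receptor of cardiomyocytes, Hipk3 and Xk (r = 0.933 to 0.935), and Gjc1 to Bpgm, Pak1 and Ube2d1 (r = 0.935 to 0.941). Gja5 was nearest to Fam108a, Ndufb4 and Mir5109 (r = 0.924 to 0.936), Gja1 to Nuak2, Myh9 and Sema3e (r = 0.861 to 0.876), and Hcn2 to Agpat9, Popdc2 and Plekha1 (r = 0.733 to 0.755). By ranks these were weaker, with Spearman rho of 0.663 to 0.767 for Gja5, 0.585 to 0.608 for Gja1 and 0.593 to 0.692 for Hcn2. For the other members rho was at least 0.806. Mir5109 had 0 counts in every D5 library, where Gja5 was lowest. Gja1 and its 3 nearest genes all had their lowest CPM in D8 GLI1 OE library 14. Among the 8 themselves the closest pairs were Cacna1g with Cacna1h (r = 0.75), Gja5 with Cacna1h (r = 0.63) and Cacna1c with Cacna1h (r = 0.63), the most opposed was Gjc1 with Cacna1g (r = -0.67), and Hcn4 and Hcn2 had r = -0.05.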

How the data were processed

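PolyA RNA of 18 libraries was read in 50-base stranded single-end runs, per the labels' protocols. The authors deposited raw counts per gene symbol for all 18 libraries, TPM values for the D5 controls, and tables of their own comparisons with log2 fold changes, p-values and, at D6, a test score. Aligner, counter, strand setting and build: not given in the sources used here. Where overlapping or near-identical partners exist, a gene's count is therefore uncertain. Count columns name day, condition and a library number, used here to name libraries. Values of a group are listed in order of library number (D6 GLI1 OE 4, 12 and 16, D6 control 3, 11 and 15, D8 GLI1 OE 14 and 18, D8 control 13 and 17, D12 GLI1 OE 10 and 20, D12 control 9 and 19).

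Counts were fitted in R 4.3.3 with edgeR 4.0.16 (TMM, filterByExpr with a minimum count of 10, robust quasi-likelihood fit of 7 groups together), with Benjamini-Hochberg adjustment over 14892 genes and calls under 0.05. Leaving out 1 of 2 libraries assumes that the lone one varies like the other groups. CPM are edgeR's. Alternatives were DESeq2 1.42.0, limma-voom (limma 3.58.1), RLE scaling, no filter, only the groups compared, D5 libraries 1 and 2 summed (they differed by 6.86 in chi-square per gene, against 50.5 to 93.7 for other D5 pairs), a replicate block, and each library left out. Libraries at D6 with adjacent numbers deviated together (r = 0.617, 0.445 and 0.52), which was taken as pairing, and the D8 pairs had r = 0.491. The 8 genes, all lists and tests were chosen with earlier results of these data known. From each list, up to 3 genes are named, by lowest adjusted p at D6, and some family members are not reported here. Foxa2 was named after its values were seen.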

Additional observations from a re-analysis of the deposited data

Results flagged for a closer look

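The effect of GLI1 OE differed between days, by the test of the difference itself, for 5 genes read beside the pacemaker channel, connexin and calcium channel genes. Of all genes 0.631% passed this test for D8 minus D6 and 0.604% for D12 minus D6. The genes read here were named by their lowest adjusted p at D6, and the D6 effect enters each difference. For the D8 effect minus the D6 effect, the log2 differences were -5.72 ± 1.08 for Gli1 (edgeR adjusted p = 0.0277), -5.28 ± 0.94 for the Hedgehog target Hhip (edgeR adjusted p = 0.0189) and -3.05 ± 0.50 for the target Ptch1 (edgeR adjusted p = 0.0112). For Tbx2 it was 4.77 ± 0.70 (edgeR adjusted p = 0.00584), with the effect at -3.62 at D6 and 1.15 at D8. For the D12 effect minus the D6 effect, the differences were -5.84 ± 1.18 for Gli1 (edgeR adjusted p = 0.0415), -4.36 ± 0.51 for Ptch1 (edgeR adjusted p = 0.00194), 5.3 ± 0.70 for Tbx2 (edgeR adjusted p = 0.00385) and 2.77 ± 0.47 for Irx3 (edgeR adjusted p = 0.0129). Irx3 had 6.49, 4.65 and 5.97 CPM in D6 GLI1 OE, against 13.2, 14.4 and 12.7 CPM in D6 control. At D12 it was higher in GLI1 OE, uncalled, at 13.2 and 13.2 CPM, against 3.49 and 5.62 CPM in control. The D6 call of Irx3 was lost with the replicate block. None of the 8 channel and connexin genes passed this test in edgeR, Hcn4 coming nearest (adjusted p = 0.121 at D8 minus D6 and 0.0924 at D12 minus D6).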

How the results depend on the processing

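The Hcn4 fall at D6 was called under every alternative run. With DESeq2 1030 genes were called at D6, 40 at D8 and 14 at D12, 233 for the D8 minus D6 effect and 281 for the D12 minus D6 effect, with 1 of the 8 genes (Hcn4) in each of the last 2. limma-voom called 1 gene at D12, and it and the fit with no filter each called 1 of the 8 in control D8 over D6. With only the libraries of the groups compared, 3 of the 8 and 1254 genes were called at D6, 1 of the 8 in D6 GLI1 OE over D5 control, 0 of the 8 and 0 genes in GLI1 OE D12 over D8, and 208 genes for D12 minus D6. Summing D5 libraries 1 and 2 left 1 of the 8 in D6 GLI1 OE over D5 control. Some small, uncalled values changed sign. limma-voom gave -0.28 for Gja1, -0.06 for Gja5 at D8, -0.07 for Hcn2 at D12, 0.32 for Gja5 in control D8 over D6, 0.17 for Gja5 and 0.26 for Cacna1c in GLI1 OE D12 over D8, and -0.42 for Gja5 in D12 minus D6. The fit of only the groups compared gave 0.00 for Hcn2 in GLI1 OE D12 over D8. The cause was not tested for any of these.

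With the replicate block by adjacent library numbers, Hcn4 at D6 was -2.86 ± 0.30 (edgeR adjusted p = 0.000801), 667 genes were called at D6, and Gja1 (-0.27) and Gja5 (-0.05) at D8 and Gja5 in D12 minus D6 (-0.38) changed sign, uncalled. The block changed no call of the 8 genes between GLI1 OE and control. At D12 adjacent numbers had r = -0.231, and with the D12 pairs crossed 1 of the 8 was called in D12 minus D6 (Hcn4), and Gja5 there was -0.37.

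Leaving out each library in turn, the D6 comparison called 330 to 800 genes, the D8 comparison 0 to 49 (49 without GLI1 OE library 14) and the D12 comparison 0 to 5. They were 2934 to 4688 in D6 GLI1 OE over D5 control, 3449 to 6340 in GLI1 OE D8 over D6 and 3086 to 5382 in GLI1 OE D12 over D8. In control they were 1561 to 2929 for D6 over D5, 2761 to 5595 for D8 over D6 and 3492 to 5803 for D12 over D8, and 48 to 127 and 12 to 123 for the D8 minus D6 and D12 minus D6 effects. Of the 8 genes, 1 to 2 were called in D6 GLI1 OE over D5 control, 3 to 5 in GLI1 OE D8 over D6, 2 to 4 in GLI1 OE D12 over D8, 2 to 4 in control D6 over D5, 1 to 3 in control D8 over D6, 2 to 4 in control D12 over D8, and 0 to 1 for D8 minus D6.

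Log2 fold changes whose sign turned in some of these fits ranged as follows. Between GLI1 OE and control they were -1.27 to 0.93 for Gja5 and -0.38 to 0.07 for Cacna1g at D6. At D8 they were -0.23 to 1.23 for Hcn2, -1.32 to 0.74 for Gja1, -1.10 to 0.88 for Gja5, -1.69 to 0.67 for Cacna1c and -1.80 to 0.60 for Cacna1h. At D12 they were -1.01 to 0.84 for Hcn2, -0.26 to 0.13 for Gja1, -0.07 to 0.40 for Gjc1 and -0.42 to 0.15 for Cacna1h. D6 GLI1 OE over D5 control gave -0.23 to 0.47 for Cacna1h. GLI1 OE D8 over D6 gave -0.33 to 1.08 for Hcn2, -0.62 to 1.36 for Gja5, -0.10 to 0.28 for Gjc1 and -0.02 to 2.38 for Cacna1c. GLI1 OE D12 over D8 gave -1.20 to 0.87 for Hcn2, -0.71 to 1.29 for Gja5, -0.87 to 1.46 for Cacna1c and -1.42 to 0.96 for Cacna1h. Control D6 over D5 gave -0.44 to 0.06 for Hcn2, -0.07 to 0.07 for Gjc1 and -0.17 to 0.66 for Cacna1c. Control D8 over D6 gave -0.69 to 0.14 for Hcn4, -0.79 to 1.40 for Gja5 and -0.46 to 0.82 for Cacna1c, and control D12 over D8 -0.07 to 1.07 for Hcn2 and -0.14 to 1.11 for Cacna1c. D8 minus D6 ranged from -1.66 to 0.40 for Gja1, -0.72 to 1.71 for Gja5, -0.06 to 0.33 for Gjc1, -0.32 to 2.08 for Cacna1c and -0.24 to 2.16 for Cacna1h. D12 minus D6 ranged from -0.47 to 1.42 for Hcn2, -1.47 to 0.73 for Gja5 and -0.42 to 0.02 for Gjc1. Depth limits Hcn2 (8 to 29 counts a library) and Gja5 at D5 (0 to 6 counts a library).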
